A study of Mus musculus with 10 samples.

Results

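The genes of tight junctions, desmosomes and gap junctions were followed while mouse fibroblasts were reprogrammed toward pluripotency. Members were chosen by symbol: claudins (Cldn), desmogleins (Dsg), desmocollins (Dsc), plakophilins (Pkp), the zonula occludens scaffolds (Tjp), connexins (Gja, Gjb, Gjc and Gjd), the Marveld and Crb genes, and Dsp, Jup, Perp, Ocln, F11r and Cgn. A gene also needed a protein-coding transcript. The rule gave 80 of the 45706 genes in the tables: 33 claudins, 19 connexins, 9 desmosomal cadherins, 8 other tight junction membrane proteins, 7 genes of the desmosome plaque with Perp, and 4 genes of the tight junction plaque. Cldn21 and Cldn34-ps matched by symbol but had no protein-coding transcript and were left out.

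Tight junctions seal the space between neighbouring epithelial cells: claudins form the strands that set what passes, occludin and tricellulin (Marveld2) join them, and the zonula occludens proteins and cingulin tie the strands to actin. Desmosomes hold cells together through desmogleins and desmocollins, which plakoglobin (Jup), plakophilins and desmoplakin (Dsp) link to keratin filaments. Gap junctions are channels of connexins that join the cytoplasm of adjacent cells and occur in fibroblasts as well as in epithelia. Fibroblasts lack sealed epithelial sheets, and a mesenchymal-to-epithelial transition is a known early step of reprogramming to pluripotent cells.

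RNA was measured in 5 groups of 2 libraries each, and every group is of the mixed background C57BL/6 x 129. MEF libraries came from uninduced mouse embryonic fibroblasts that carry a doxycycline-inducible OKSM cassette (Pou5f1, Klf4, Sox2 and Myc) in the Col1a1 locus and the transactivator M2rtTA in the Rosa26 locus, kept in MEF medium without doxycycline and unsorted. The day 3, day 6 and day 9 libraries came from cells of that genotype in ESC medium, which holds 1000 U/ml LIF, with 1 µg/ml doxycycline and 50 µg/ml ascorbic acid. The day 3 culture was taken whole, and at day 6 and day 9 only cells positive for the SSEA surface marker, a carbohydrate of early pluripotent cells, were taken. ESC libraries came from the V6.5 line, a single embryonic stem cell line without the cassette, grown in ESC medium with the same LIF on irradiated feeder cells and left unsorted. Day 3 thus differs from MEF in induction, ascorbic acid and medium (LIF included) together, and also in sex-linked expression, given below. Day 6 differs from day 3 in time and sorting. Differences that come together cannot be told apart. Nothing in the labels says that the 2 libraries of a group came from separate cultures, so p-values measure the spread between these libraries, which may be technical. The labels put all 10 libraries in the same batch.

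The number of estimated reads per library lay between 29585876 and 38275024, of which 21181 to 105852 fell on the members. Marker genes were set beside the labels: 13 fibroblast markers summed to 9564.1 to 10052.1 TPM (a level per transcript length) in MEF and 14.4 TPM at day 9, and 9 pluripotency markers summed to 2601.2 to 2629.4 TPM in ESC. The ESC libraries still held 853.2 to 899.0 TPM of the fibroblast markers, with 11 of the 13 genes at 1 TPM or more and Lum under 0.1 TPM. The sum of 8 epithelial markers was 20.3 to 20.8 TPM in MEF, 7.1 to 7.8 at day 3, 62.1 to 62.5 at day 6, 331.8 to 340.2 at day 9 and 101.4 to 101.7 in ESC. Markers of stratified epithelium summed to at most 26.1 TPM in any library, those of endothelium to 22.5, of myelinating glia to 23.9, of trophoblast to 5.6, of extraembryonic endoderm to 4.3, of haematopoietic cells to 20.3 and of muscle to 5.8. Xist averaged 0.766 CPM in MEF and 1010 CPM at day 3, and the Y-linked gene Ddx3y 88.5 and 0.0713 CPM. At day 9 Xist averaged 1075 CPM and Ddx3y 0.0987 CPM, against 10.2 and 26.5 CPM in ESC. The induced libraries thus differ from both the MEF and the ESC libraries in sex-linked expression. None of the 13 members on the X chromosome reached a group mean of 10 CPM.

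Promoter sequence is shown for 5 members that rose together from day 3 to day 9: claudin genes Cldn3 and Cldn4, the polarity gene Crb3, and the plaque genes Tjp3 and Cgn. The stretches come from the RefSeq promoter table (GRCm38.p6), run 5′ to 3′ on the gene's strand from 250 bases before a listed start, and stop before any annotated untranslated region. Capitals mark matches on either strand to 3 motifs: CAGGTG, the E-box letters that Snail and Zeb factors bind, AACCNGTT, the letters bound by Grainyhead-like factors, and GGGNGTGG, letters bound by Krüppel-like factors. These 5 were chosen after their values and matches were seen.
Cldn3, chr5:134985964-134986213, plus strand: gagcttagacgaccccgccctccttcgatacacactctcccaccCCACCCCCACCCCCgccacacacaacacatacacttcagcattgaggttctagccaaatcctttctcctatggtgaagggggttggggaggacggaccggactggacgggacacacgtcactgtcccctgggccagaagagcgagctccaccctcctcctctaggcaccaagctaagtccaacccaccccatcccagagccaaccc
Cldn4, chr5:134946935-134947184, minus strand: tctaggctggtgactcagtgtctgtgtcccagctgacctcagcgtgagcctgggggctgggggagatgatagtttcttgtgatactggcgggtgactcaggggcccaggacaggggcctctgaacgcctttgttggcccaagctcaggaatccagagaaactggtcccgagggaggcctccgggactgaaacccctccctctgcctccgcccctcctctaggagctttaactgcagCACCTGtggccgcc
Crb3, chr17:57061951-57062140, plus strand: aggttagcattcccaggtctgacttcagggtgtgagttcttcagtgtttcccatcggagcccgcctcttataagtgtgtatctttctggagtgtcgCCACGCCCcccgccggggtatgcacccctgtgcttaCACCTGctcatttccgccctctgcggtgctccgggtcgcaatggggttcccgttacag
Tjp3, chr10:81291582-81291831, minus strand: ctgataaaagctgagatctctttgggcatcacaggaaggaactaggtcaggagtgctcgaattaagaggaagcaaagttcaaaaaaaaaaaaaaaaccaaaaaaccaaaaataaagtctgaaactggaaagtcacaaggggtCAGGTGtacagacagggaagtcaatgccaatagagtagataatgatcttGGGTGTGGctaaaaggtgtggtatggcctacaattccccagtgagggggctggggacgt
Cgn, chr3:94786493-94786732, minus strand: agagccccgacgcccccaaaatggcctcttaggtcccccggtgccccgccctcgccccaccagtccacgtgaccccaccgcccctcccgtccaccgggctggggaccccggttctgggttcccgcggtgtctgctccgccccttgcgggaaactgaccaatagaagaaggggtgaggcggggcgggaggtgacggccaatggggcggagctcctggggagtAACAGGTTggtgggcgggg

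The promoter table held 67 windows for 50 of the 80 members. CAGGTG occurred in 16 of them, or 23.9%, against 17.2% of the 32851 windows of all genes. The members with that match were Cldn4, Cldn6, Cldn7, Cldn14, Cldn34a, Ocln, Crb3, F11r, Tjp3, Pkp4, Gja3, Gjb1, Gjb2 and Gjd2. GGGNGTGG occurred in 22.4% of the members' windows against 15.9%, and AACCNGTT in 4.48% against 1.79%, the latter in Cgn, Cldn5 and Gjb6. The 3 motifs do not contain one another, the 2 GGGNGTGG matches of Cldn3 overlap each other, and a match is a run of letters only.

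Of the 80 members, 47 passed the filter on low counts and were tested, and 33 did not, with a highest group mean of 0.369 CPM (reads scaled to library size with TMM) among them. Those 33 include 17 claudins, 8 connexins and every desmosomal cadherin other than Dsc2 and Dsg2, and 9 had no read in any of the 10 libraries. A gene was called higher or lower at an adjusted p under 0.05 and at least a 2-fold change in edgeR's quasi-likelihood test, fitted to all 20165 genes that passed. Members that passed through the group in which they are high had to differ somewhere, so the counts below are set beside the same counts over all tested genes.

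Members of several roles rose at each step, and most of the well expressed members were highest in the sorted day 9 cells. From MEF to day 3, 15 of the 47 members were higher and 10 lower, where 14.6% and 14.5% of all tested genes were called. Of those that rose, 8 encode plaque proteins of desmosomes or tight junctions, counting Perp. From day 3 to day 6, 18 were higher and 7 lower, against 9.26% and 10.2% of all genes. From day 6 to day 9, 18 were higher, against 5.18% of all genes, and 0 lower, against 2.68%. For that count of 0, edgeR gave 7 members lower at an unadjusted p under 0.05, among them Jup, Tjp1, Gjc1, Marveld1 and Gja1, and DESeq2 also called 0. In bulk RNA, fewer cells that express a gene and less RNA per cell cannot be told apart.

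Day 9 cells lay above both end points for much of the set. Against MEF, 27 members were higher and 8 lower at day 9, where 24.1% and 19.8% of all tested genes were called. ESC were higher than day 9 cells for 10 members and lower for 21, against 18.6% and 14.3% of all genes. Between ESC and MEF, 24 were higher and 11 lower, against 25.5% and 20.6%. Members called higher at day 9 than in both MEF and ESC numbered 18, against 8.17% of all genes, and 6 were lower than in both, against 8.48%. The comparisons share groups, so these counts are not independent of one another.

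Among the 29 members that reached 10 CPM in a group, 20 had their highest mean at day 9, 4 at day 3, 1 at day 6, 2 in MEF and 2 in ESC. Among all 47 tested members, 24 had their highest mean at day 9, 8 at day 3, 4 at day 6, 5 in MEF and 6 in ESC. Over all 20165 tested genes, 16.2% had their highest mean at day 9, 15.7% at day 3, 13.2% at day 6, 26.5% in MEF and 28.4% in ESC. The 10 CPM limit was not put on those genes, so these shares compare with the 47 members rather than the 29. The median log2 change of the 47 tested members was 0.65 at day 3 against MEF, 0.53 at day 6 against day 3, 0.92 at day 9 against day 6 and -0.62 in ESC against day 9. The medians over all tested genes were 0.08, 0.03, 0.00 and 0.00. With members that had no read in a group set to the bound that 3 reads allow, the median at day 3 was 0.48 and the others of these 4 were the same.

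**Figure D1:**
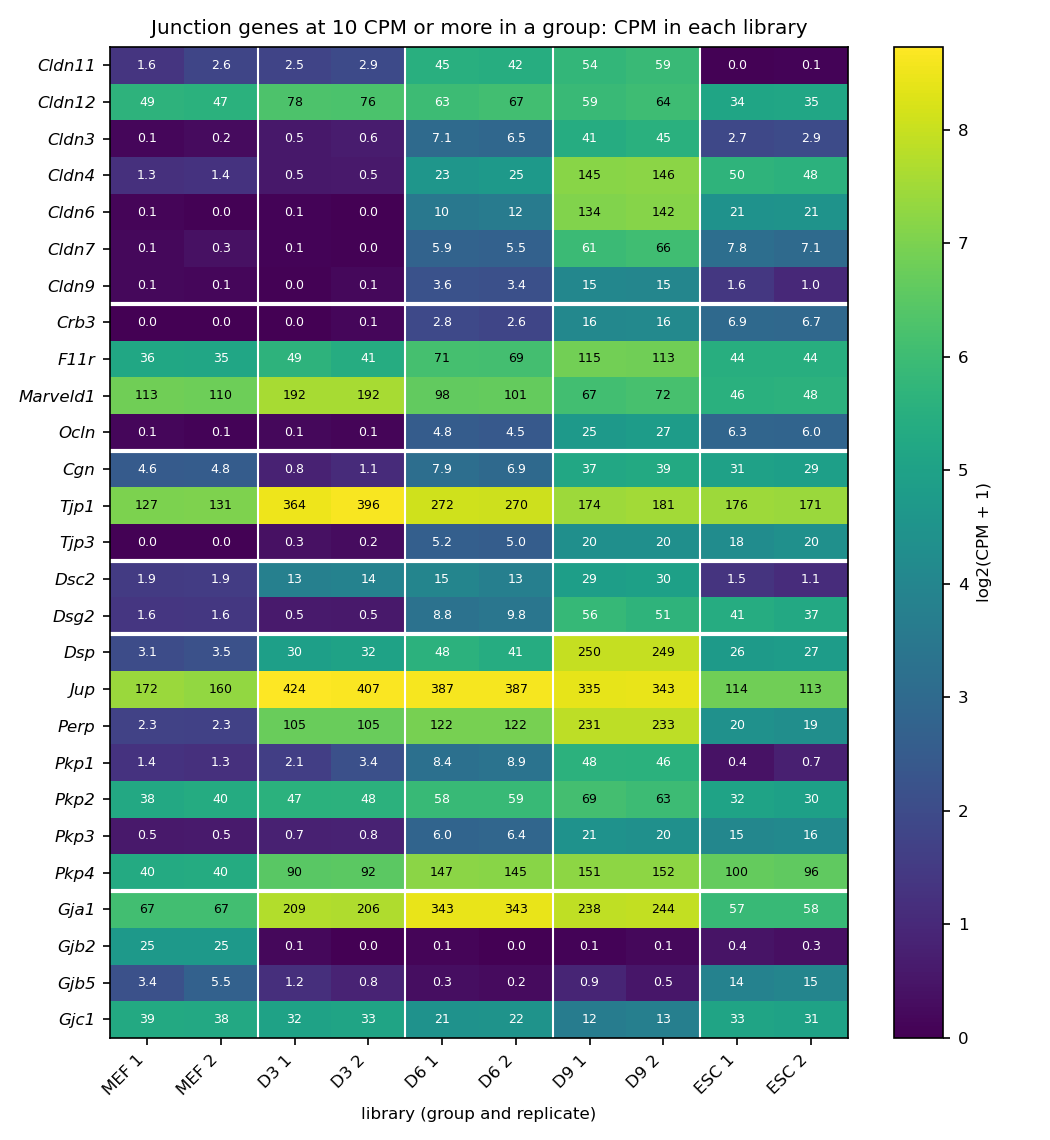
CPM of 27 members that reached 10 CPM in a group, one row per gene ordered by role and one column per library, with color giving log2(CPM + 1) and the CPM printed in each cell. The 2 libraries of a group look alike, and 19 of the 27 rows have their highest mean at day 9.

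Summed over all 80 members, the level was 204.4 and 195.0 TPM in the MEF libraries, 407.8 and 426.0 at day 3, 476.7 and 458.1 at day 6, 656.6 and 669.8 at day 9, and 299.0 and 301.2 in ESC. The groups did not overlap, and day 9 was above every other library. In MEF 14 members reached a mean of 1 TPM, at day 3 18 did, at day 6 23, at day 9 29, and in ESC 25. Plakoglobin (Jup) alone made up 36.8% of the day 3 sum, 17.5% at day 9 and 14.7% in ESC.

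**Figure D2:**
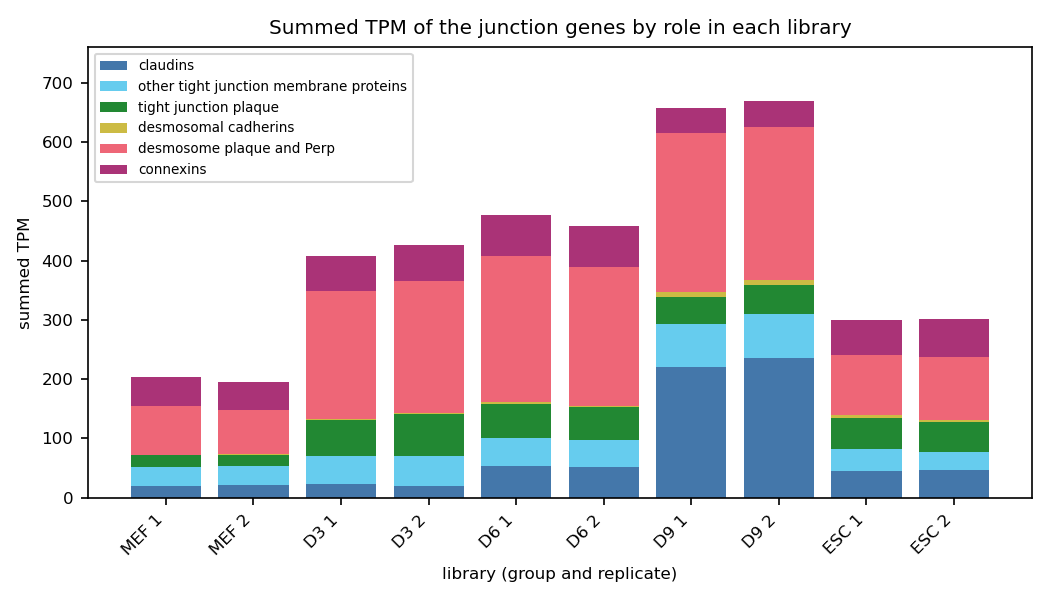
Summed TPM of the 80 members in each of the 10 libraries, stacked by role. The desmosome plaque segment is larger from day 3 onward than in MEF, and the claudin segment grows to 221.0 and 236.3 TPM in the 2 day 9 libraries.

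Claudins made up 89.8% of the net gain in summed TPM from day 6 to day 9, and 51.9% of the gain in summed CPM. Their sum was 19.7 and 21.5 TPM in MEF, 23.7 and 20.3 at day 3, 53.2 and 52.3 at day 6, 221.0 and 236.3 at day 9, and 44.6 and 46.5 in ESC. The sum also changed hands. Cldn12, a claudin outside the classic group, held 72.0% of it in MEF and 80.1% at day 3. Cldn7 held 37.6% at day 9 and Cldn4 held 33.1% in ESC. The Cldn7 share depends on how its reads were divided among transcripts, as given below. Of the 16 claudins tested, 1 rose and 5 fell at day 3, 8 rose and 3 fell at day 6, and 5 rose and 0 fell at day 9. Of all tested genes, 14.6%, 9.26% and 5.18% rose at these steps and 14.5%, 10.2% and 2.68% fell. Against MEF, day 9 cells had 8 claudins higher and 4 lower, where 24.1% and 19.8% of all tested genes were called.

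Cldn4, a claudin of tight epithelia and of the early embryo, stood at 1.29 and 1.43 CPM in MEF, 0.485 and 0.503 at day 3, 23.3 and 25.1 at day 6, 145 and 146 at day 9, and 49.7 and 47.9 in ESC. It was lowest at day 3 and highest at day 9, and no groups overlapped. It fell by 1.47 on the log2 scale to day 3 (SE 0.22), then rose by 5.61 (SE 0.11) and by 2.58 (SE 0.05). In ESC it was lower than at day 9, with a log2 change of -1.57 (SE 0.04, adjusted p = 4.0e-13 by edgeR).

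Cldn3, its neighbour, rose at each step: it was 0.111 and 0.183 CPM in MEF, 0.485 and 0.591 at day 3, 7.11 and 6.47 at day 6, 41.3 and 45.3 at day 9, and 2.71 and 2.94 in ESC. All 5 groups were separate. Its log2 change was 8.14 at day 9 against MEF (SE 0.17, adjusted p = 6.8e-15 by edgeR) and -3.94 in ESC against day 9 (SE 0.10, adjusted p = 1.5e-13 by edgeR). Cldn3 and Cldn4 lie at chr5:134986214-134987472 and chr5:134945119-134946934 in GRCm38, 39279 bases apart on opposite strands. Cldn13, next to Cldn4 on the other side, was among the members not tested.

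Cldn6, a claudin typical of embryonic epithelia, had 0.0739 and 0.0305 CPM in MEF, 0.0538 and 0 at day 3, 10.2 and 11.5 at day 6, 134 and 142 at day 9, and 21.1 and 21.3 in ESC. MEF and day 3 overlapped at a few reads. The day 9 level was 2648 times the MEF level, with a 95% counting interval of 944 to 13372, and the ESC level was lower than day 9, with a log2 change of -2.71 (SE 0.06). Cldn9 ends 137 bases from Cldn6, tail to tail at chr17:23682584-23684026. Cldn9 measured 0.148 and 0.122 CPM in MEF, 0.0269 and 0.148 at day 3, 3.56 and 3.36 at day 6, 15.3 and 15 at day 9, and 1.65 and 0.988 in ESC. Both genes of this pair rose at day 6 and again at day 9 and were lower in ESC than at day 9.

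Cldn7, a claudin of epithelial cell borders that binds Epcam, had 0.148 and 0.305 CPM in MEF, 0.0538 and 0.0296 at day 3, 5.91 and 5.5 at day 6, 61.4 and 65.7 at day 9, and 7.81 and 7.1 in ESC. On the per-length scale it was the leading claudin at day 9, at a mean of 86 TPM against 47.9 for Cldn6 and 40.4 for Cldn4. That level depends on how reads were divided among transcripts. The 373-base transcript Cldn7-005 took 27.9% and 30.9% of the gene's reads in the day 9 libraries. In reads not scaled for length, Cldn7 averaged 63.5 CPM at day 9, below Cldn6 at 138 and Cldn4 at 145. The day 9 level of Cldn7 was above MEF by a log2 change of 8.07 (SE 0.14, adjusted p = 1.5e-15 by edgeR). Its fall at day 3 rests on 3 reads at day 3 and lost its call without MEF replicate 2 (log2 change -1.72, adjusted p = 0.15 by edgeR).

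Cldn11, known from myelin and from Sertoli cells, followed another course. It had 1.55 and 2.56 CPM in MEF, 2.5 and 2.87 at day 3, 44.6 and 42.2 at day 6, 54.5 and 58.9 at day 9, and 0.0295 and 0.0534 in ESC, where only 3 reads were counted. MEF and day 3 overlapped, day 6 and day 9 were high, and ESC were lowest. It rose by 4.02 on the log2 scale at day 6 (SE 0.11, adjusted p = 9.0e-13 by edgeR), and the day 9 level was 1368 times the ESC level, with a 95% counting interval of 462 to 6540. Markers of myelinating glia summed to 1.7 to 1.8 TPM in MEF, 11.9 to 13.8 at day 3, 23.6 to 23.9 at day 6, 13.4 to 15.9 at day 9 and 1.6 to 2.1 in ESC, with Sox10 under 0.1 TPM at day 6 and day 9 and their part in the result not tested. Between day 6 and day 9 Cldn11 differed by less than 2-fold (log2 change 0.39, SE 0.07).

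Cldn12 varied least of the claudins at 10 CPM or more, at 48.8 and 47 CPM in MEF, 78 and 75.9 at day 3, 62.9 and 67.4 at day 6, 58.8 and 63.6 at day 9, and 34.4 and 34.6 in ESC. It was called in no comparison on counts, its largest log2 difference being -0.83 (SE 0.05) in ESC against day 9. Per length it was called lower in ESC than in MEF, at -1.05 with a length offset against -0.47 on counts, and limma on log2(TPM + 0.1) also made that call. Claudins between 1 and 10 CPM went both ways. Cldn1, a barrier claudin of skin, fell at day 3 from 7.06 and 5.4 CPM to 0.592 and 0.443, and had 0 and 0.0302 CPM at day 6. Cldn5, known from endothelium, rose at day 6 from 0.0538 and 0.118 to 1.18 and 1.21 CPM. Cldn10 rose at day 6 (log2 change 1.33, SE 0.43), while Cldn15 and Cldn19 fell at day 3 (log2 change -1.36, SE 0.43, and -3.08, SE 0.90). Cldn34c1 was called only in ESC against MEF, at -1.59 (SE 0.22). Cldn2, Cldn20 and Cldn22 were tested but stayed under 1 CPM in every group, and every exon base of Cldn22 lies within an exon of Wwc2 on the opposite strand, so its reads are uncertain.

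**Figure D3:**
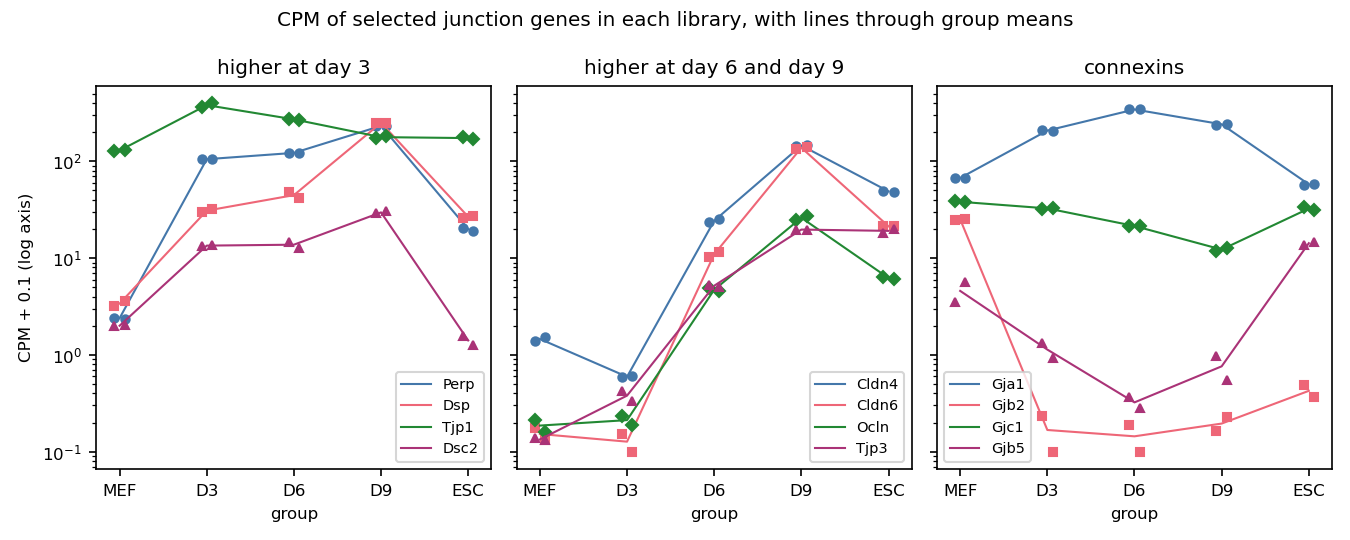
CPM + 0.1 on a log axis over MEF, day 3, day 6, day 9 and ESC for 12 members in 3 panels, with a point for each library and a line through the group means. Perp, Dsp, Tjp1 and Dsc2 are already up at day 3, Cldn4, Cldn6, Ocln and Tjp3 climb at day 6 and day 9, and of the connexins Gja1 is highest at day 6 and Gjb5 is lowest at day 6 and highest in ESC.

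Of the 7 other membrane proteins of the tight junction tested, Ocln, Crb3, Marveld2 and Marveld3 rose at day 6 and again at day 9. F11r, Marveld1 and Crb2 were called at neither of those steps. In ESC 6 of the 7 were lower than at day 9, where 14.3% of all tested genes were lower. Ocln encodes occludin and had 0.111 and 0.061 CPM in MEF, 0.135 and 0.0887 at day 3, 4.76 and 4.45 at day 6, 24.8 and 27.2 at day 9, and 6.28 and 5.95 in ESC. MEF and day 3 overlapped near 0, and the later groups were separate. Its log2 change was 5.31 at day 6 (SE 0.24), 2.50 at day 9 (SE 0.11) and -2.09 in ESC against day 9 (SE 0.10, adjusted p = 2.2e-10 by edgeR).

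Crb3, an apical polarity protein, had no read in MEF. It measured 0 and 0.118 CPM at day 3, 2.79 and 2.57 at day 6, 15.9 and 16.4 at day 9, and 6.92 and 6.68 in ESC. Against the 3 reads over the group that a count of 0 allows, it was at least 322-fold higher at day 9 and at least 136-fold higher in ESC than in MEF. Marveld2 and Marveld3, the tricellular and bicellular relatives of occludin, stayed under 10 CPM but rose at all 3 steps. The day 3 rise of Marveld3 rests on 13 reads against 1 in MEF, a ratio of 9.83 with a counting interval of 1.95 to 429. Marveld2 had 0.0369 and 0.152 CPM in MEF, 0.323 and 0.443 at day 3, 2.38 and 3.18 at day 6, 8.68 and 8.64 at day 9, and 4.07 and 2.83 in ESC. Ocln and Marveld2 are neighbours on chromosome 13, 43238 bases apart on the minus strand.

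F11r, the adhesion molecule JAM-A, was present throughout at 36.2 and 35.2 CPM in MEF, 49.1 and 41.2 at day 3, 70.6 and 69 at day 6, 115 and 113 at day 9, and 43.5 and 43.6 in ESC. It was called in 2 comparisons, with a log2 change of 1.67 at day 9 against MEF (SE 0.06, adjusted p = 5.1e-12 by edgeR) and -1.38 in ESC against day 9 (SE 0.06). Marveld1 went the other way, at 113 and 110 CPM in MEF, 192 and 192 at day 3, 98.3 and 101 at day 6, 67.1 and 71.8 at day 9, and 45.5 and 48.2 in ESC. Its single call was lower in ESC than in MEF (log2 change -1.25, SE 0.04), which was -0.91 and no longer called with library-size scaling alone. Crb2 was called lower in ESC than at day 9 and than in MEF, at 3.58 and 3.08 CPM in MEF and 0.589 and 0.721 in ESC.

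In the plaque of the tight junction, Tjp1 rose at day 3 and was called at neither later step of induction, Tjp3 and Cgn rose at day 6 and day 9, and none of these 3 was called between ESC and day 9. Tjp1, the scaffold ZO-1, stood at 127 and 131 CPM in MEF, 364 and 396 at day 3, 272 and 270 at day 6, 174 and 181 at day 9, and 176 and 171 in ESC. It rose at day 3 by 1.56 on the log2 scale (SE 0.04, adjusted p = 2.5e-13 by edgeR). Tjp1 was highest at day 3 and was not called between day 9 and MEF (log2 change 0.46, SE 0.04).

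Tjp3, the scaffold ZO-3 of epithelial cells, had 0.0369 and 0.0305 CPM in MEF, 0.323 and 0.236 at day 3, 5.2 and 4.96 at day 6, 19.6 and 19.6 at day 9, and 18.1 and 19.9 in ESC. Its day 9 level was 582 times that of MEF, with a 95% counting interval of 163 to 4852 because MEF held 2 reads. Cgn, cingulin, had 4.62 and 4.76 CPM in MEF, 0.781 and 1.09 at day 3, 7.91 and 6.9 at day 6, 37.1 and 38.7 at day 9, and 30.6 and 29.3 in ESC. Cgn fell at day 3 by 2.33 on the log2 scale (SE 0.16) before it rose by 2.99 (SE 0.15) and 2.36 (SE 0.08). In ESC against day 9 the log2 differences were -0.04 (SE 0.04) for Tjp1, -0.05 (SE 0.08) for Tjp3 and -0.34 (SE 0.07) for Cgn, and none of them was called, where 14.3% of all tested genes were lower.

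Only Dsc2 and Dsg2 of the 9 desmosomal cadherins passed the filter. Dsg2, desmoglein 2, is the widely expressed desmoglein of simple epithelia, and Dsc2 is its desmocollin counterpart. Dsc2 had 1.88 and 1.92 CPM in MEF, 13.1 and 13.6 at day 3, 14.6 and 12.7 at day 6, 28.9 and 30.2 at day 9, and 1.47 and 1.15 in ESC. Dsg2 had 1.63 and 1.65 CPM in MEF, 0.538 and 0.503 at day 3, 8.82 and 9.83 at day 6, 56.3 and 50.6 at day 9, and 41.3 and 37.3 in ESC. At day 3 Dsc2 rose (log2 change 2.80, SE 0.12) and Dsg2 fell (log2 change -1.64, SE 0.26), and both rose at day 9. With limma on log2(TPM + 1) the Dsg2 fall was -0.11 and the Dsc2 rise at day 9 was 0.70 (1.11 on counts), and on log2(TPM + 0.1) they were -0.59 and 0.98, none of which was called. They parted again in ESC, where Dsc2 was lower than at day 9 by a log2 change of -4.50 (SE 0.12, adjusted p = 1.8e-13 by edgeR) and Dsg2 by -0.44 (SE 0.07), which is not called. The difference between the 2 genes was not tested. All 9 cadherins lie in a cluster on chromosome 18, with Dsg2 at one end.

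Most genes of the desmosome plaque with Perp rose at day 3, and fewer were called at each later step. All 7 members were tested: 5 rose at day 3, 2 at day 6 and 3 at day 9, and 0 fell. Of all tested genes, 14.6%, 9.26% and 5.18% rose at these steps and 14.5%, 10.2% and 2.68% fell. The median log2 change of the 7 members was 1.18, 0.53 and 0.92. Their summed level went from 82.2 and 75.0 TPM in MEF to 215.6 and 222.7 at day 3. The sum then stood at 246.0 and 234.7 TPM at day 6, 268.3 and 258.8 at day 9, and 102.2 and 106.6 in ESC. Jup alone held 70.1% of the day 3 sum in TPM. The size of the step to day 9 depends on the scale, since the summed CPM was 776.0 and 769.3 at day 6 and 1104.1 and 1106.3 at day 9. These genes made up 11.8% of the members' net gain from day 6 to day 9 in TPM and 47.7% in CPM. The 8 epithelial markers summed to 7.1 to 7.8 TPM in the day 3 libraries, against 20.3 to 20.8 in MEF. Of these markers, 2 were called higher at day 3 (Cdh1 and Epcam) and 2 lower (Krt18 and Krt19).

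Perp, a membrane protein that p53 activates and that desmosomes of stratified epithelia need, had the largest rise among the members at day 3. It stood at 2.33 and 2.26 CPM in MEF, 105 and 105 at day 3, 122 and 122 at day 6, 231 and 233 at day 9, and 20.5 and 19.1 in ESC. Every induced library was above every MEF and ESC library. The log2 change was 5.51 at day 3 (SE 0.06, adjusted p = 4.3e-17 by edgeR), 0.92 at day 9 against day 6 (SE 0.03), which is under 2-fold, and -3.55 in ESC against day 9 (SE 0.04). Perp lies at chr10:18845020-18857073 on the plus strand.

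Dsp, desmoplakin, binds keratin filaments and had 3.1 and 3.48 CPM in MEF, 29.7 and 31.9 at day 3, 47.8 and 41.4 at day 6, 250 and 249 at day 9, and 26 and 27.2 in ESC. It rose by 3.22 on the log2 scale at day 3 (SE 0.10) and by 2.48 at day 9 (SE 0.06), and was lower in ESC than at day 9 (log2 change -3.23, SE 0.06, adjusted p = 4.9e-15 by edgeR). Jup, plakoglobin, is shared by desmosomes and adherens junctions and had 172 and 160 CPM in MEF, 424 and 407 at day 3, 387 and 387 at day 6, 335 and 343 at day 9, and 114 and 113 in ESC. Jup was highest at day 3 and lowest in ESC, with a log2 change of 1.33 at day 3 (SE 0.04) and -1.58 in ESC against day 9 (SE 0.04). Its call at day 9 against MEF (log2 change 1.03, SE 0.04) lies at the 2-fold limit and was lost with DESeq2, at 0.89, and without MEF replicate 2, at 0.98.

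The plakophilins differed among themselves. Pkp1, the plakophilin of stratified epithelia, had 1.4 and 1.31 CPM in MEF, 2.1 and 3.37 at day 3, 8.44 and 8.92 at day 6, 47.5 and 46.2 at day 9, and 0.354 and 0.694 in ESC. Pkp3, which is found in most desmosomes of epithelia, had 0.517 and 0.549 CPM in MEF, 0.727 and 0.769 at day 3, 5.97 and 6.38 at day 6, 20.7 and 20.1 at day 9, and 15.4 and 16.5 in ESC. Pkp1 was lower in ESC than at day 9 by a log2 change of -6.45 (SE 0.18, adjusted p = 5.1e-13 by edgeR), whereas Pkp3 differed by -0.36 (SE 0.08) and was not called. The make-up of the Pkp3 reads differed. Coding transcript Pkp3-001 took 47.4% and 48.2% at day 9 and 4.1% and 9.7% in ESC, and Pkp3-002 took 0.0% at day 9 and 21.6% and 8.2% in ESC. Retained-intron transcript Pkp3-003 took 0.0% and 3.8% at day 9 and 22.7% and 23.0% in ESC. With protein-coding transcripts only, Pkp3 was still not called there. The call of Pkp1 at day 3 (log2 change 1.00, SE 0.24) was lost without day 3 replicate 2, at 0.63, and without MEF replicate 2, at 0.95. It was also lost with DESeq2 (0.88), the stricter filter (0.91), a fit to the 2 groups (0.94), a length offset (0.76) and limma on log2(TPM + 1) or log2(TPM + 0.1) (0.13 and 0.49).

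Pkp4, a relative found at adherens junctions, had 39.7 and 40.5 CPM in MEF, 89.6 and 92.3 at day 3, 147 and 145 at day 6, 151 and 152 at day 9, and 100 and 96.2 in ESC. It rose at day 3 (log2 change 1.18, SE 0.04), and that call was lost when only protein-coding transcripts were summed, at 0.96. Pkp2, which is found in simple epithelia and heart, varied least of the plaque genes, at 37.9 and 40.5 CPM in MEF, 47 and 47.8 at day 3, 57.8 and 58.6 at day 6, 68.9 and 63 at day 9, and 32.5 and 30.5 in ESC. Its single call was lower in ESC than at day 9 (log2 change -1.06, SE 0.06), a call that DESeq2 did not make.

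**Figure D4:**
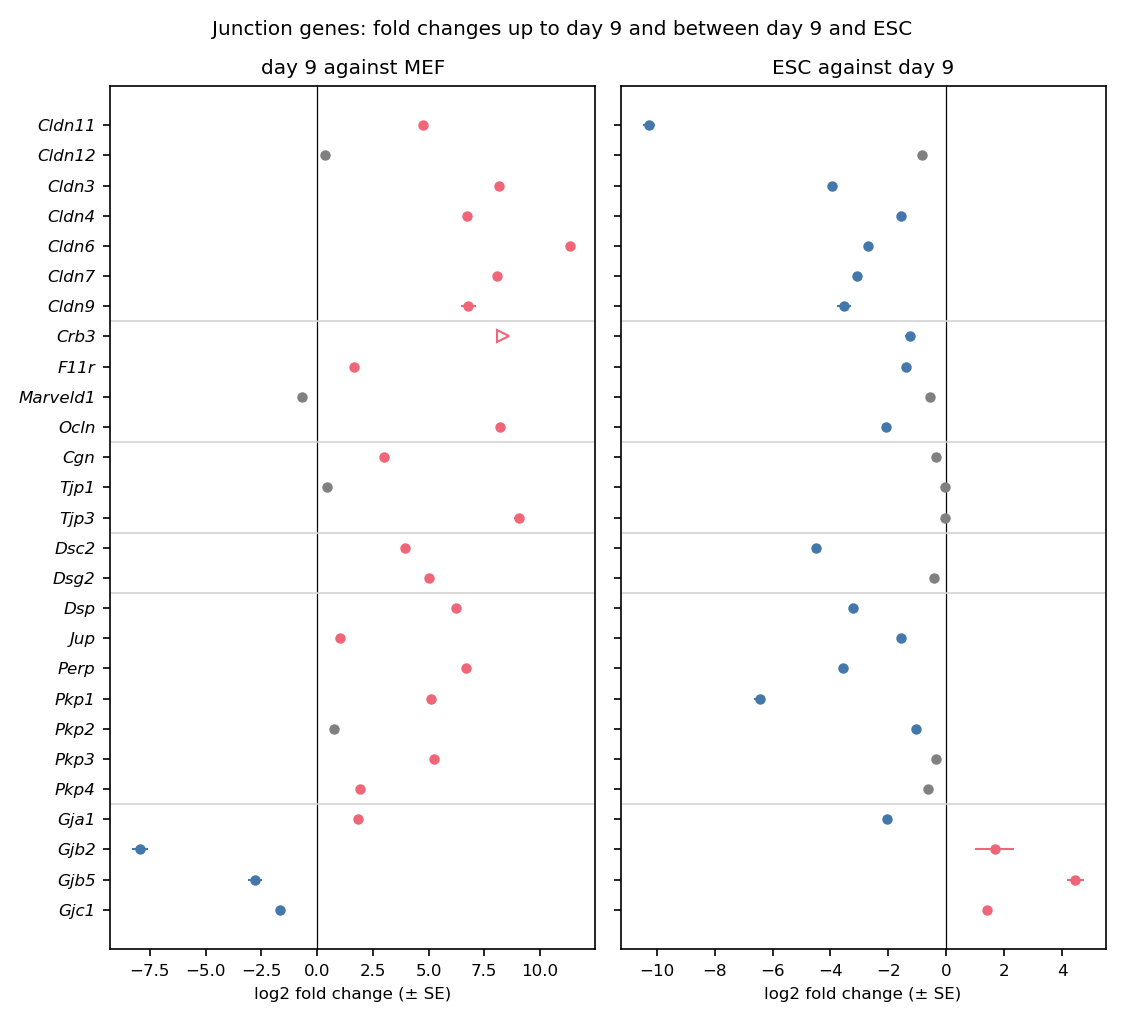
Fitted log2 changes with bars of 1 SE for 27 members at 10 CPM or more, grouped by role, with red for called higher, blue for called lower, grey for not called and an open triangle for the lower bound of Crb3; Cldn6 and Tjp3 at day 9 against MEF and Cldn11 in ESC rest on 3 reads or fewer in one group. At day 9 against MEF 20 were called higher and 3 lower, while in ESC against day 9 3 were called higher and 16 lower.

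Of the 11 connexins tested, 2 rose and 0 fell from day 6 to day 9, against 5.18% and 2.68% of all tested genes. The summed level of all 19 connexins was 50.3 and 46.7 TPM in MEF, 59.9 and 60.4 at day 3, and 69.6 and 68.7 at day 6. It was 41.8 and 44.0 TPM at day 9 and 57.9 and 63.6 in ESC, with day 9 lowest. That order depends on the scale, since their summed CPM was 146.5 and 147.7 in MEF, 258.9 and 266.0 at day 9, and 174.5 and 173.8 in ESC, with MEF lowest. Day 6 was highest on both scales. Against MEF, day 9 cells had 3 connexins above and 4 below, where 24.1% and 19.8% of all tested genes were called. ESC had 7 connexins above day 9 and 2 below, against 18.6% and 14.3% of all tested genes. Gja1, connexin 43, a connexin of fibroblasts, had 67 and 67.3 CPM in MEF, 209 and 206 at day 3, 343 and 343 at day 6, 238 and 244 at day 9, and 57.4 and 58 in ESC. It was highest at day 6, with a log2 change of 1.63 at day 3 (SE 0.03, adjusted p = 1.1e-14 by edgeR) and -2.06 in ESC against day 9 (SE 0.03, adjusted p = 1.1e-15 by edgeR). At day 9 it made up 85.7% of the summed connexin TPM. In MEF and in ESC the leading connexin on that scale was Gjc1, with 56.1% and 36.7% of the sum. In CPM, Gja1 was above Gjc1 in both of these groups.

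Gjc1, connexin 45, was lower at each stage up to day 9: it had 38.6 and 37.5 CPM in MEF, 31.9 and 33.1 at day 3, 21.1 and 21.6 at day 6, 11.7 and 12.6 at day 9, and 33.4 and 31.4 in ESC. It was lower at day 9 than in MEF (log2 change -1.64, SE 0.06) and higher in ESC than at day 9 (log2 change 1.41, SE 0.06, adjusted p = 6.0e-11 by edgeR). The step from day 6 to day 9 was -0.81 (SE 0.06) and passed 2-fold only on per-length scales, where a length offset gave -1.75 (SE 0.20). On those scales the level depends on how reads were divided among transcripts, and transcript Gjc1-001 took 69.6% of the gene's reads in one day 9 library and 27.7% in the other.

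Gjb2, connexin 26, fell at day 3. It had 24.9 and 25.2 CPM in MEF, 0.135 and 0 at day 3, 0.0882 and 0 at day 6, 0.0643 and 0.126 at day 9, and 0.383 and 0.267 in ESC. The log2 change at day 3 was -8.40 (SE 0.38, adjusted p = 9.3e-11 by edgeR), the largest fall of a member there. Its call in ESC above day 9 (log2 change 1.67, SE 0.67, adjusted p = 0.04 by edgeR) was lost on leaving out either MEF library, either day 9 library or ESC replicate 1, with adjusted p from 0.055 to 0.16.

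Gjb5, connexin 31.1, followed a course with its low point at day 6. It had 3.44 and 5.52 CPM in MEF, 1.24 and 0.828 at day 3, 0.265 and 0.181 at day 6, 0.868 and 0.455 at day 9, and 13.6 and 14.7 in ESC. It was highest in ESC, with a log2 change of 4.45 against day 9 (SE 0.29, adjusted p = 5.0e-09 by edgeR). Gja4, connexin 37, known from endothelium and oocytes, was also higher in ESC, at 1.27 and 1.55 CPM against 0.129 and 0.0253 at day 9 (log2 change 4.23, SE 0.67). The rise of Gjb5 at day 9 (log2 change 1.51, adjusted p = 0.029 by edgeR) was lost without day 6 replicate 1, without day 6 replicate 2 and without day 9 replicate 1, at adjusted p of 0.075, 0.17 and 0.23.

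Fibroblast markers moved with these ESC values, since 12 of the 13 were higher in ESC than at day 9 and their sum was 853.2 to 899.0 TPM against 14.4. Gjb5 was called higher in ESC than in MEF, with a log2 change of 1.65 (SE 0.23). Gjb2 and Cldn1 were called lower in ESC than in MEF, and Gjc1 was not (log2 change -0.23). For Gjb5, Gjb2, Cldn1 and Gjc1 the part of fibroblast RNA in the ESC value was not tested. Among the rarer connexins, Gja5 rose at day 3 to 4.9 and 5.11 CPM and fell at day 6 to 1.15 and 1.33. Gjb1, connexin 32, had no read in MEF or at day 3 and 1.77 and 1.82 CPM in ESC, at least 35.8-fold above MEF. Gjc3 was called only at day 9 against MEF (log2 change 1.41, SE 0.45).

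Across roles, 14 members rose both at day 6 and at day 9: Cldn3, Cldn4, Cldn6, Cldn7, Cldn9, Ocln, Crb3, Marveld2, Marveld3, Tjp3, Cgn, Dsg2, Pkp1 and Pkp3. That pattern was met by 2.25% of all tested genes. Cldn3, Marveld2, Marveld3, Pkp1 and Tjp3 rose at day 3 as well, a pattern met by 0.392% of all tested genes. The day 3 call of Pkp1 was lost under the settings given above. The day 3 rises of Marveld3 and Tjp3 rest on 1 and 2 reads in MEF. Counting intervals for their ratios were wide, at 1.95 to 429 and 2.32 to 69.2. Cldn4, Cldn7, Cgn and Dsg2 instead fell at day 3 before they rose. With limma on log2(TPM + 1), the day 3 calls of Cldn3, Cldn4, Cldn7, Cgn, Dsg2, Pkp1 and Tjp3 were lost, and so were the day 6 calls of Cgn, Dsg2, Pkp1 and Tjp3. Only members at 10 CPM or more were followed gene by gene there, so Marveld2 and Marveld3 were not covered. Their means were 0.508 and 0.314 TPM at day 6 and 1.43 and 1.36 TPM at day 9, levels at which adding 1 shrinks a log2 change. The epithelial markers beside them were 8 of 8 higher at day 9 than at day 6 and 7 of 8 lower in ESC than at day 9, and their part in the members' values was not tested.

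Genes outside the rule were counted from fixed lists. For comparison, of all tested genes 14.6% rose and 14.5% fell at day 3, 9.26% and 10.2% at day 6, and 5.18% and 2.68% at day 9. From MEF to day 9, 24.1% rose and 19.8% fell, and 18.6% were higher and 14.3% lower in ESC than at day 9. Of 30 other tight junction genes, 8 rose and 6 fell at day 3, 6 rose and 5 fell at day 6, 3 rose and 2 fell at day 9, and 6 were higher and 8 lower in ESC than at day 9. From MEF to day 9, 14 rose and 8 fell. The largest rises there were those of Ildr1 (log2 change 7.74, SE 0.16) and Lsr (4.78, SE 0.09). The largest falls were those of Ildr2 (log2 change -6.43, SE 0.18) and Bves (-5.01, SE 0.44). Between ESC and day 9, Cgnl1, the paralogue of cingulin, was higher by a log2 change of 3.07 (SE 0.07) and the scaffold gene Magi2 lower by -3.60 (SE 0.11).

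Of 20 partners of desmosomes and adherens junctions, 2 rose and 9 fell at day 3, 10 rose and 1 fell at day 6, and 12 rose and 0 fell at day 9. In ESC against day 9, 1 was higher and 8 lower. Epcam and Cdh1 (E-cadherin) rose most from MEF to day 9, with log2 changes of 11.10 (SE 0.08) and 10.06 (SE 0.10), and Cdsn, corneodesmosin, fell by 4.69 (SE 0.42). Between ESC and day 9 Cdsn was higher (log2 change 2.88, SE 0.44). Cdh1 was not called there, at -0.22 (SE 0.04). Of 5 other channel genes tested, 0 rose and 4 fell from MEF to day 9, among them Calhm2 (log2 change -3.12, SE 0.13), and Panx3 had no read at day 9. Fam26e was higher in ESC than at day 9 (log2 change 2.12, SE 0.26).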

How the data were processed

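Poly(A) RNA was sequenced from 10 libraries in 5 groups. Transcript abundance was computed with Salmon 0.8.2 on mm10, per the submitters' processing notes, and the annotation release is not given in the sources used here. The deposited tables hold estimated counts, which are not normalized, and TPM, scaled by the authors' tool for transcript length and to a fixed library total, for 109617 transcripts. Effective lengths were identical in all tables. The kit was stranded, per the labels' protocols, but the strand setting is not given in the sources used here.

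Estimated counts were summed to 45706 genes and rounded. The filterByExpr function of edgeR 4.0.16 in R 4.3.3 (minimum count 10, minimum total 15) kept 20165 genes. Libraries were scaled by TMM and fitted in a single quasi-likelihood model with a mean per group, with Benjamini-Hochberg adjustment over all tested genes. A call needed an adjusted p-value under 0.05 and a change of 1 or more on the log2 scale in either direction. The SE of a log2 change is its size divided by the root of F. Folds against a group without reads use 3 reads over its 2 libraries, and ratios on 1 to 3 reads carry 95% Poisson intervals, for counting error only. Replicate pairs differed beyond counting noise (chi-square per degree of freedom 2.82 to 5.18). Coordinates are those of GENCODE M21 (GRCm38), in which all 80 members matched. The steps were tested on simulated counts.

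Members, roles and lists were chosen with earlier results of these data known. Members at 10 CPM or more in a group are described by library, and those at 1 to 10 CPM are named, but some of the genes these rules name are not reported here. For each list outside the rule, the 2 largest called rises and falls from MEF to day 9 and the strongest calls each way between ESC and day 9 are named. Alternatives were DESeq2 1.42.0, no filter and a stricter filter, fits to 2 groups, other scalings, limma 3.58.1 on log2 TPM, protein-coding transcripts only, no fold minimum, a replicate block and leaving out each library. Python 3.11.15 was used.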

Additional observations from a re-analysis of the deposited data

How the results depend on the processing

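No called change of a member at 10 CPM or more reversed its direction under any alternative run. Counts of called members changed most often with limma on log2(TPM + 1) or log2(TPM + 0.1), 14 counts each, and with the stricter filter or no fold minimum, 13 each. Over 1.5-fold moves numbered 9, 3, 5 and 3 in that order. With a filter of 10 CPM in 2 libraries only 29 members were tested, and lower members numbered 2 at day 6 against day 3 (7 as reported), 4 in ESC against MEF (11), 3 at day 9 against MEF (8) and 3 below both end points (6), while 4 were higher in ESC than at day 9 (10). Higher against lower calls then stood at 13 to 2 at day 6 against day 3 (18 to 7), 4 to 16 in ESC against day 9 (10 to 21) and 17 to 4 in ESC against MEF (24 to 11). Limma on log2(TPM + 1), which compresses low genes, gave 8 higher and 1 lower at day 3 (15 and 10), 9 and 1 at day 6 (18 and 7), 1 lower at day 9 against day 6 (0), 3 higher in ESC than at day 9 (10), 2 lower in ESC and 2 lower at day 9 than in MEF (11 and 8), and 1 below both end points (6). The shares of higher calls were then 88.9%, 90.0%, 17.6%, 88.9% and 91.7% at day 3, at day 6, in ESC against day 9, in ESC against MEF and at day 9 against MEF (60.0%, 72.0%, 32.3%, 68.6% and 77.1%). Limma on log2(TPM + 0.1) gave 6 lower at day 3, 1 lower at day 9 against day 6 and 3 below both end points. Among members at 10 CPM or more it ended 10 calls, and log2(TPM + 1) ended 25. The length offset and protein-coding transcripts alone each gave 1 lower at day 9 against day 6. With no fold minimum, lower members numbered 12 at day 6, 6 at day 9 against day 6 and 17 in ESC against MEF.

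Leaving out each library gave 14 to 16 higher and 9 to 10 lower at day 3, 16 to 18 and 5 to 7 at day 6, 17 to 18 and 0 to 2 at day 9 against day 6, 8 to 10 and 21 to 22 in ESC against day 9, 23 to 25 and 9 to 11 in ESC against MEF, and 25 to 27 and 6 to 8 at day 9 against MEF. The 2 lower at day 9 against day 6 came without day 9 replicate 1. Where a group kept 1 library, it is assumed to vary like the other groups. The counts above and below both end points ranged from 17 to 18 and from 4 to 6. Library-size scaling shifted all genes, to a median log2 change of 0.285 at day 3, 0.438 in ESC and 0.482 at day 9 against MEF, and called Pkp2 higher at day 9 than in MEF (1.04). The replicate block changed 5 of the counts, none by over 1.5 times, such as 17 higher members at day 6 in place of 18. It ended no call of a member at 10 CPM or more. Same-numbered libraries deviated from their group means with a mean correlation of 1e-04 (-0.0205 to 0.0222, 10 pairs). The labels do not say whether they share a preparation. The correlation was taken over all tested genes with their counting noise, so it cannot exclude a shared preparation. Sums of CPM in place of TPM were added after seeing the data. They turned the log2 ratio of the connexins from -0.18 to 0.84 at day 9 against MEF and from 0.50 to -0.59 in ESC against day 9, and that of the tight junction plaque from 0.10 to -0.08 in ESC against day 9.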
